A study of Drosophila melanogaster with 27 samples.

Results

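Neuropeptide precursors are the transcripts from which insects make their peptide hormones and peptide neuromodulators. All 34 members of a list of such genes were found by symbol among the 11923 genes of the table, and insulin-like peptides were left out of the list. The values come from heads of female Drosophila melanogaster of the wild-type strain Oregon-R, raised on standard food at 25 °C, at 50 days of age and at 3 days of age. Each age had 3 biological replicates, each a pool of 20 heads, and neither age carried a transgene or a drug. The series holds 27 samples in 9 groups, and the 21 that cover diets and the raising of Lsp2 or Rheb in the fat body were not analysed here. Its title ties the storage protein Lsp2 to the mTORC1 pathway and to lifespan, and the ages were compared here to ask which precursor transcripts differ between old and young heads.

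A neuropeptide is cut out of a larger precursor by convertases at pairs of basic residues, is often amidated at its end, and is stored in dense core vesicles. After release it acts on receptors, most of them G protein-coupled, on nearby neurons or, through the hemolymph, on distant organs. In the fly head most precursors are made by small sets of identified neurons and neurosecretory cells, and many of the same genes are also active in endocrine cells of the gut.

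Levels are given as FPKM, fragments per kilobase of transcript relative to the library's total, after multiplication of each library by a factor between 0.948 and 1.11 that aligns the bulk of the genes. The sequencing depth was not given in the sources used here, so the precision of a value is that of its 3 replicates. Summed deposited values were 539645, 504504 and 514826 in 50-day heads, against 427992, 450496 and 502587 in 3-day heads, and 8558 to 8806 genes reached 1 FPKM in a library. Changes are differences of log2(FPKM + 1), tested with limma over the 8742 genes whose mean reached 1 FPKM, with Benjamini-Hochberg adjustment and a threshold of 0.05. In whole heads, fewer cells of a type and less RNA per cell cannot be told apart. With ages of 50 and 3 days alone, an early change cannot be told from a late one.

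Most precursors for which a change was called were higher in old heads. Of 34 precursors, 29 passed the filter on low values. Of these, 16 rose, 3 fell and 10 were not called. Over all genes tested, 39.1% were called, 18.3% as higher and 20.8% as lower. The median log2 change was 0.42 for the 29 precursors and -0.0011 for all 8742 genes. Of the 29, 28 lay above 1 FPKM in every library, and Akh did so in 1 library alone. The 50-day libraries lay above every 3-day library for 18 precursors and below every one for 5, where 26% and 28.3% of all genes did so and 54.3% did either. The summed level of 32 precursors, without the very abundant Nplp2 and Nplp3, in FPKM was 1971, 2209 and 2101 in 50-day heads, against 1253, 1425 and 1541 in 3-day heads. With Nplp2 and Nplp3 included, the sum was 16086.5, 8787 and 9577 FPKM in 50-day heads, against 12826, 9294 and 13087 FPKM in 3-day heads. That sum of all 34 overlapped between the ages.

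**Figure D1:**
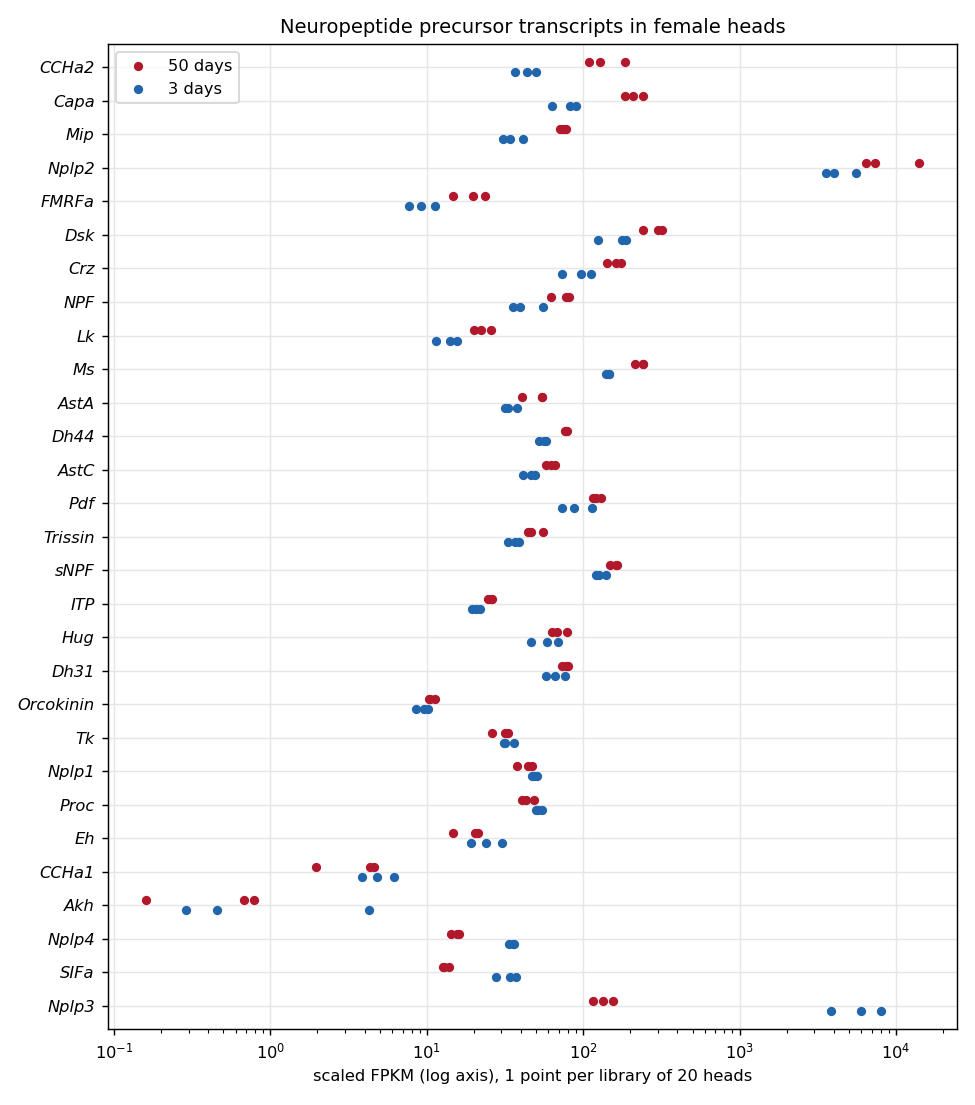
Scaled FPKM (log axis) of the 29 tested precursors in each library, with the 3 libraries of 50-day heads in red and the 3 of 3-day heads in blue. The rows are ordered by log2 change, from CCHa2 at 1.64 at the top to Nplp3 at -5.40 at the bottom.

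These calls are relative to the bulk of the genes. When each library was instead rescaled to the same sum, which moves the median change of all genes to -0.26, 10 precursors were called higher and 7 lower, where 8.38% and 35.7% of all genes were. All 10 were among the 16, the 6 calls lost were sNPF, Dh44, AstA, AstC, ITP and Trissin, and the 4 further falls were Tk, Nplp1, Proc and Eh. With the deposited values unscaled, which moves that median to -0.098, 13 were called higher and 4 lower, where 13% and 26% of all genes were, and the calls of sNPF, ITP and Trissin were lost. No called precursor turned its direction in any of 13 alternative fits, and 9 of the 16 rises and all 3 falls were called in every one.

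**Figure D2:**
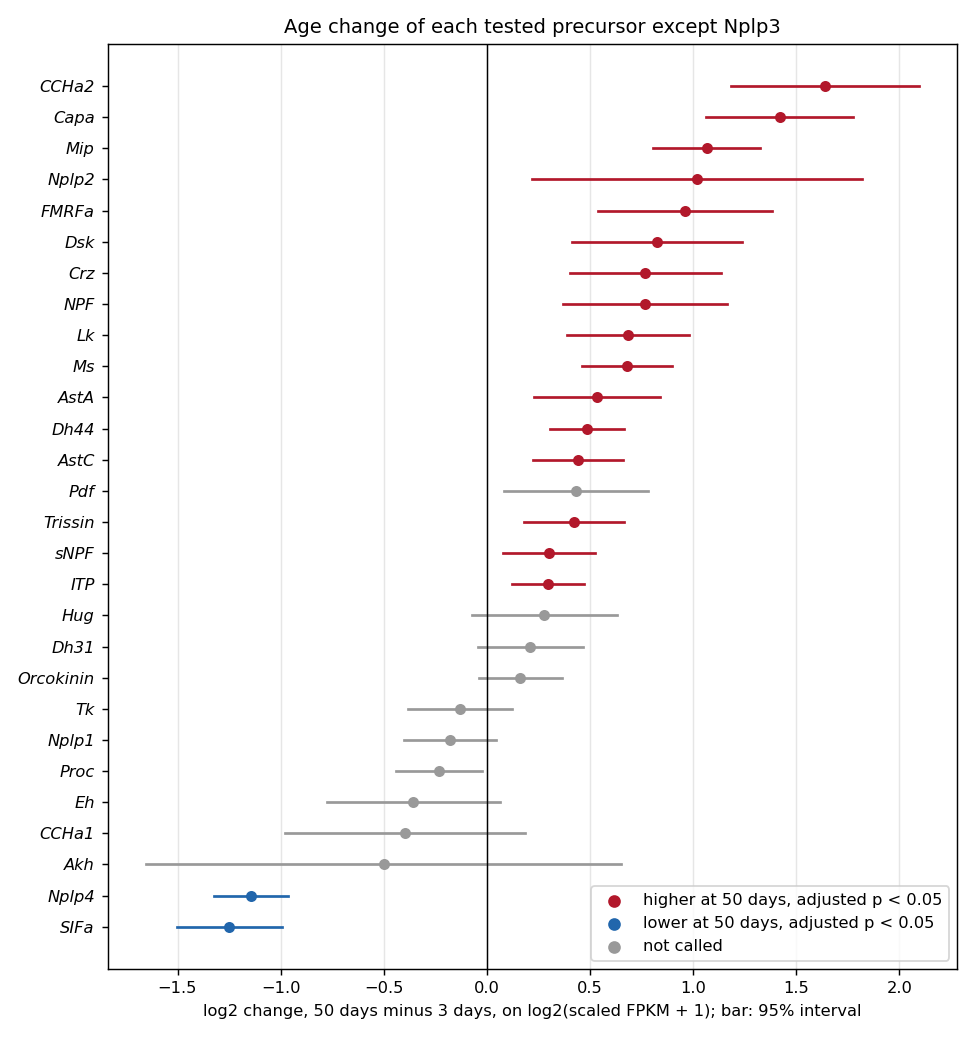
Log2 change (50 days minus 3 days, on log2 of scaled FPKM + 1) of each tested precursor except Nplp3, with its 95% interval, not adjusted for the number of genes, as a bar. Red marks the 16 called higher, blue SIFa and Nplp4 among those called lower, and grey the 10 that were not called.

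Precursors of peptides shared by brain and gut included the highest rise of the set. Of 7 such genes, 4 rose, none fell and 3 were not called, where 18.3% of all genes were higher and 20.8% lower. Of all 29 tested precursors 16 rose and 3 fell, and no group by function was tested against the others. CCHa2, which is also made in the fat body and gut and acts on insulin-producing cells in larvae, had 184, 128 and 109 FPKM in 50-day heads, against 36.4, 43.9 and 50.2 FPKM in 3-day heads. The groups did not overlap, and the mean was 3.22 times as high in old heads (log2 change 1.64, SE 0.20, adjusted p 0.000648, limma). The gene lies on chromosome arm 3R, bases 13389059 to 13395197, minus strand, in build BDGP6. In old heads its highest value stood in replicate 1, which also had the highest sum of 9 fat body markers, 67545, 50819.6 and 36282 FPKM in 50-day heads, against 12957, 16753 and 28064 FPKM in 3-day heads. Most of that sum came from the yolk protein genes Yp1, Yp2 and Yp3, at 32098, 13958 and 18803 FPKM in old replicate 1. Of the other markers, apolpp and Fbp1 were also highest in old replicate 1, Lsp2, to and Cyp4g1 in replicate 2 and FASN1 in replicate 3. The part of fat body RNA in the rise was not tested.

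Mip, the precursor of the myoinhibiting peptides or B-type allatostatins, was higher by a similar measure in each old library. It had 71.2, 74.8 and 77.5 FPKM in 50-day heads, against 34.1, 30.6 and 41.2 FPKM in 3-day heads, on chromosome arm 3L, bases 17344947 to 17349666, minus strand. Each old library lay well above every young one, and the mean was 2.11 times as high (log2 change 1.07, SE 0.11, adjusted p 0.000397). AstA, the precursor of A-type allatostatins that inhibit feeding, had 40.9, 54.7 and 54.9 FPKM in 50-day heads, against 31.5, 32.9 and 37.9 FPKM in 3-day heads. Its old replicate 1 lay below the other two but above every young library (log2 change 0.53, SE 0.13, adjusted p 0.0138), and the call was lost without 50-day replicate 2 (adjusted p 0.0519). AstC, the precursor of the C-type allatostatin, named for its action on juvenile hormone synthesis in other insects, had 57.8, 66.5 and 62.2 FPKM in 50-day heads, against 41.3, 46.5 and 48.9 FPKM in 3-day heads. The groups did not overlap (log2 change 0.44, SE 0.095, adjusted p 0.00779).

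The other brain and gut precursors were not called. Orcokinin, a precursor of peptides first known from crustaceans, had 11.3, 10.3 and 10.4 FPKM in 50-day heads, against 9.66, 10.2 and 8.54 FPKM in 3-day heads. The old libraries lay just above the young ones, but the difference was small (log2 change 0.16, SE 0.087, adjusted p 0.176), with a 95% interval of -0.039 to 0.36. Tk, the tachykinin precursor, had a log2 change of -0.13 (95% interval -0.38 to 0.12, adjusted p 0.371). CCHa1, a relative of CCHa2, had 1.96, 4.36 and 4.58 FPKM in 50-day heads, against 6.20, 4.80 and 3.86 FPKM in 3-day heads. Its low value in old replicate 1 widened the spread (log2 change -0.40, SE 0.25, adjusted p 0.246), and without that library the change was -0.10. Transcripts of enzymes of the midgut, whose endocrine cells are the other main source of these peptides, were near 0. No marker of those endocrine cells was on the list. The sum of 7 midgut enzyme and protease markers was 1.29, 0.827 and 0.829 FPKM in 50-day heads, against 0.277, 0.356 and 0.677 FPKM in 3-day heads, and none of the 7 passed the filter. Listed at 0 in every young library, betaTry had 0.0718, 0 and 0 FPKM and Jon65Aiii 0, 0.120 and 0 FPKM in 50-day heads. The markers gammaTry, deltaTry, epsilonTry, thetaTry and Jon25Biii were not found in the table.

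Among 7 precursors of peptides that act on feeding, 4 rose, none fell, 1 was not called and 2 were not tested. The shares of all genes were 18.3% higher and 20.8% lower. Dsk, the precursor of the sulfakinins, which are relatives of cholecystokinin and signal satiety, was the most abundant precursor at both ages once Nplp2 and Nplp3 are set aside. It had 242, 320.0 and 299 FPKM in 50-day heads, against 124, 189 and 177 FPKM in 3-day heads. All old libraries stood above all young ones (log2 change 0.83, SE 0.18, adjusted p 0.00804). NPF, the relative of vertebrate neuropeptide Y that promotes feeding, had 62.0, 81.7 and 77.3 FPKM in 50-day heads, against 35.5, 39.3 and 55.2 FPKM in 3-day heads. The lowest old library exceeded the highest young one (log2 change 0.77, SE 0.17, adjusted p 0.00956). Trissin, the precursor of a disulfide-bonded peptide, had 46.6, 44.4 and 55.3 FPKM in 50-day heads, against 32.9, 36.5 and 38.6 FPKM in 3-day heads. The groups were separate (log2 change 0.42, SE 0.11, adjusted p 0.0149).

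The rise of sNPF, the precursor of short neuropeptide F, which is made widely in the brain including the mushroom bodies, was the least firm of this group. It had 148, 162 and 165 FPKM in 50-day heads, against 120.4, 125 and 139 FPKM in 3-day heads. The gap between the groups was narrow (log2 change 0.30, SE 0.10, adjusted p 0.0394). The call was lost without 50-day replicate 2 (adjusted p 0.123) or 3 (0.127), without 3-day replicate 1 (0.0929) or 2 (0.117). Hug, the neuromedin U-like precursor of neurons below the esophagus, overlapped between the ages (log2 change 0.28, SE 0.15, adjusted p 0.179), and was called higher without 3-day replicate 3 (0.42, adjusted p 0.0476). Hug was not called when any other library was left out (adjusted p 0.172 to 0.423). RYa and CNMa were below the filter. RYa ranged from 0.214 to 1.98 FPKM in old heads and from 0 to 0.953 in young heads. CNMa, whose peptide signals amino acid shortage, had 0.679, 0.541 and 0.568 FPKM in 50-day heads, against 1.13, 1.07 and 1.52 FPKM in 3-day heads. The CNMa groups did not overlap, and a fit with no filter gave a log2 change of -0.49 (adjusted p 0.0106).

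Of 5 precursors of peptides that act on water and ion balance, 4 rose, none fell and Dh31 was not called. Among all genes, 18.3% were higher and 20.8% lower. Capa, the precursor of capability peptides that act on the Malpighian tubules and of a pyrokinin, had 207, 243 and 184 FPKM in 50-day heads, against 63.5, 81.9 and 90.4 FPKM in 3-day heads. The groups were far apart, and the mean was 2.69 times as high in old heads (log2 change 1.42, SE 0.15, adjusted p 0.000432). The gene lies on chromosome arm 3R, bases 29912991 to 29914346, minus strand. Lk, the leucokinin precursor, which stimulates fluid secretion by the tubules, had 20.0, 22.2 and 25.7 FPKM in 50-day heads, against 11.5, 14.1 and 15.5 FPKM in 3-day heads. It did not overlap between the ages (log2 change 0.68, SE 0.13, adjusted p 0.00423). An antisense RNA shares 582 exon bases with Lk, and with no statement of strand in the sources used here reads of the pair cannot be told apart.

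Dh44, the relative of corticotropin-releasing factor, was among the most even of the set. It had 77.8, 79.0 and 76.3 FPKM in 50-day heads, against 57.5, 56.3 and 52.1 FPKM in 3-day heads. The replicates of each age lay close together and the ages apart (log2 change 0.48, SE 0.078, adjusted p 0.00227). ITP, the precursor of an antidiuretic ion transport peptide, had 24.6, 25.6 and 26.2 FPKM in 50-day heads, against 20.5, 19.4 and 21.7 FPKM in 3-day heads. The groups were separate by a small step (log2 change 0.30, SE 0.075, adjusted p 0.0155), and the call was lost without 50-day replicate 2 (adjusted p 0.0575) or 3 (0.0595) or without 3-day replicate 2 (0.0619). ITP shares 296 exon bases with CG4622 on the opposite strand, which stood at 5.02 ± 0.495 FPKM in old heads and 5.20 ± 0.404 FPKM in young heads (SD, n = 3 each). Dh31, the calcitonin-like diuretic hormone that also acts in clock circuits, overlapped between the ages (log2 change 0.21, SE 0.11, adjusted p 0.165), with a 95% interval of -0.044 to 0.47. Without 3-day replicate 3 it was called higher (0.31, adjusted p 0.0287), but not without any other library (adjusted p 0.190 to 0.355).

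Of 3 precursors of peptides that act on muscle, 2 rose and 1 was not called, where 18.3% of all genes were higher. Ms, the precursor of myosuppressin, which inhibits contractions of the gut and heart, had 213, 242 and 239.9 FPKM in 50-day heads, against 146, 139.5 and 147 FPKM in 3-day heads. The young libraries lay within a narrow range and all old ones above it (log2 change 0.68, SE 0.095, adjusted p 0.00120). FMRFa, the precursor of FMRFamide-like peptides that strengthen contraction at nerve-muscle junctions, had 14.6, 23.6 and 19.7 FPKM in 50-day heads, against 7.66, 9.17 and 11.3 FPKM in 3-day heads. Its old replicate 1 was the lowest of its age but above every young library, and the mean was 2.06 times as high (log2 change 0.96, SE 0.18, adjusted p 0.00454). Proc, the precursor of the muscle stimulant proctolin, had 40.6, 48.5 and 43.3 FPKM in 50-day heads, against 49.7, 54.6 and 51.4 FPKM in 3-day heads. All old libraries lay below the young ones without a call (log2 change -0.23, SE 0.091, adjusted p 0.0774), and the fall was called with unscaled values (-0.34, adjusted p 0.0406). Muscle markers were mostly lower in old heads, with 8 of 10 called lower, where 20.8% of all genes were. Their sums were 960.5, 1029.7 and 1099 FPKM in 50-day heads, against 2696, 1586 and 2100.1 FPKM in 3-day heads, and the part of muscle RNA in the precursor values was not tested.

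Crz, the precursor of corazonin, a stress and metabolic peptide related to adipokinetic and gonadotropin-releasing hormones, rose. It had 142, 161 and 174 FPKM in 50-day heads, against 73.3, 112 and 96.8 FPKM in 3-day heads. The groups did not overlap (log2 change 0.77, SE 0.16, adjusted p 0.00670). Akh, the glucagon-like adipokinetic hormone of the corpora cardiaca, was low, with 0.787, 0.677 and 0.161 FPKM in 50-day heads, against 0.287, 0.454 and 4.27 FPKM in 3-day heads. Its highest value, in 3-day replicate 3, set the young mean (log2 change -0.50, SE 0.50, adjusted p 0.457). Of 3 precursors that drive the shedding of the cuticle at molts, CCAP and ETH were below the filter, with a range of 0.934 to 1.43 and 0.166 to 0.247 FPKM in old heads and of 0.684 to 1.12 and 0.189 to 0.801 FPKM in young heads. Eh, the eclosion hormone of a pair of brain neurons, overlapped between the ages at 18.8 ± 3.53 FPKM in 50-day heads and 24.4 ± 5.48 FPKM in 3-day heads (SD, n = 3 each, log2 change -0.36, SE 0.18, adjusted p 0.155).

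Of 3 precursors tied to the clock, sleep or memory, 1 fell, 1 was not called and 1 was not tested, where 20.8% of all genes were lower. SIFa, the precursor of the SIFamide peptide of a few neurons in the pars intercerebralis that act on sleep, feeding and courtship, fell. It had 12.7, 13.9 and 12.96 FPKM in 50-day heads, against 34.1, 27.7 and 36.9 FPKM in 3-day heads. Every old library was below every young one, and the mean was 2.50 times as high in young heads (log2 change -1.25, SE 0.11, adjusted p 0.000185). SIFa shares 111 exon bases with Start1 on the opposite strand, which had 8.92 ± 0.504 FPKM in old heads and 8.60 ± 0.985 FPKM in young heads (SD, n = 3 each). Dsk and Dh44 are also made in the pars intercerebralis, and both rose. Pdf, the precursor of the pigment-dispersing factor of the ventral lateral clock neurons, had 116, 129.6 and 120.4 FPKM in 50-day heads, against 73.4, 87.6 and 114 FPKM in 3-day heads. The old libraries lay narrowly above the young ones without a call (log2 change 0.43, SE 0.15, adjusted p 0.0543). Without 3-day replicate 3, the highest of its age, the change of Pdf was 0.60, adjusted p 0.00618. Pdf was not called when any other library was left out (adjusted p 0.0916 to 0.145). Rescaled to the same sum, its change was 0.15 (adjusted p 0.407). The learning gene amn did not exceed 0.0595 FPKM in any library, below the filter.

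The genes Nplp1 to Nplp4, found as neuropeptide-like precursors in peptide surveys of the fly nervous system, had the widest spread of changes. Of the 4, 1 rose, 2 fell and 1 was not called, where 18.3% of all genes were higher and 20.8% lower. Nplp3 had 134, 154 and 115 FPKM in 50-day heads, against 8027, 3857 and 5976 FPKM in 3-day heads. It ranked 3 among all genes by mean level in young heads and 544 in old heads, and the mean was 44.2 times as high in young heads (log2 change -5.40, SE 0.26, adjusted p 2.51e-05, limma). No library of one age came near the other, and young replicate 2 was the lowest of its age. The gene lies on chromosome arm 3L, bases 16318024 to 16318690, plus strand, in build BDGP6.

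Nplp4 also fell, at a far lower level than Nplp3 and with little spread. It had 15.7, 14.3 and 16.0 FPKM in 50-day heads, against 33.6, 35.7 and 36.1 FPKM in 3-day heads, on chromosome arm 2L, bases 2008414 to 2009072, plus strand. The groups were well separated (log2 change -1.15, SE 0.078, adjusted p 6.63e-05). Nplp2 moved the other way, with 13982, 6423 and 7361 FPKM in 50-day heads, against 3546, 4012 and 5569 FPKM in 3-day heads. It ranked 5 by mean level in old heads and 8 in young heads. Its highest old value, like the highest sum of fat body markers given above, stood in replicate 1. Its lowest stood in replicate 2, that of the sums in replicate 3, and the part of fat body RNA was not tested. Every old library lay above every young one, old replicate 1 by a wide margin (log2 change 1.02, SE 0.35, adjusted p 0.0483). The call was lost without any of 50-day replicates 1 (adjusted p 0.134), 2 (0.0530) and 3 (0.0790), without 3-day replicate 1 (0.117) or 2 (0.136), and with no filter (0.175). Nplp1 had 37.7, 44.2 and 47.2 FPKM in 50-day heads, against 50.4, 47.2 and 48.4 FPKM in 3-day heads. Its groups were separate by a very narrow gap and the fall was not called (log2 change -0.18, SE 0.10, adjusted p 0.179).

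Of the summed FPKM of all 34 precursors, the percentage held by Nplp2 and Nplp3 together was 87.8, 74.9 and 78.1 in 50-day heads, against 90.2, 84.7 and 88.2 in 3-day heads. The share of each of the other 32 precursors in their own pool does not depend on the scaling of libraries. Dsk and Ms ranked 1 and 2 in this pool at both ages. Capa held 10.5, 11.0 and 8.76% of the pool in 50-day heads, against 5.07, 5.74 and 5.87% in 3-day heads, and ranked 3 in old heads and 6 in young heads. CCHa2 held 9.34, 5.78 and 5.17% of the pool in 50-day heads, against 2.91, 3.08 and 3.26% in 3-day heads, and ranked 6 in old heads and 13 in young heads. The share of SIFa was 0.644, 0.628 and 0.617% of the pool in 50-day heads, against 2.72, 1.94 and 2.40% in 3-day heads. These shares of Capa, CCHa2 and SIFa did not overlap between the ages. Among the other precursors called higher, the shares of Mip and FMRFa were higher in old heads without overlap. Those of sNPF, AstC and ITP, also called higher, were lower in old heads without overlap. The share of sNPF was 7.496, 7.341 and 7.862% of the pool in 50-day heads, against 9.611, 8.79 and 9.023% in 3-day heads. Of precursors not called, Dh31, Hug, Proc, Nplp1, Tk, Eh and CCHa1 had lower shares in old heads without overlap. The share of Pdf, which overlapped, was 5.90, 5.87 and 5.73% of the pool in 50-day heads, against 5.86, 6.14 and 7.37% in 3-day heads.

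**Figure D3:**
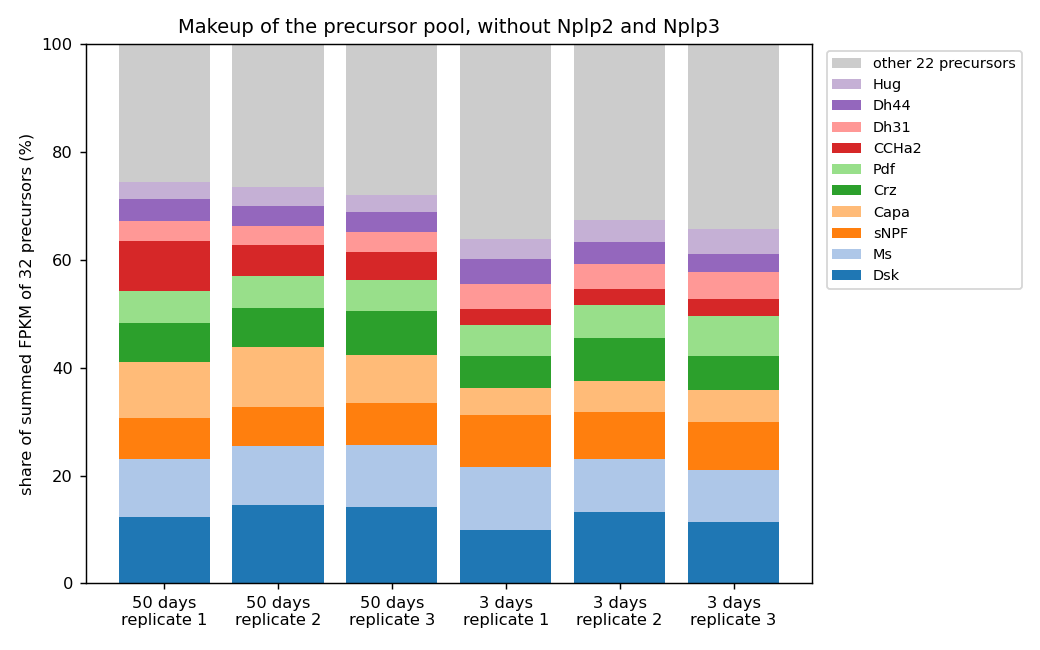
Share (%) of the summed FPKM of 32 precursors, without Nplp2 and Nplp3, held by the 10 most abundant ones in each library, with the 3 libraries of 50-day heads on the left and the 3 of 3-day heads on the right. Capa and CCHa2 take a wider band in every 50-day library, and the other 22 precursors together take a narrower one.

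Receptors of these peptides were more often lower than higher in old heads. Of 34 receptor genes, 29 passed the filter. Of these, 3 were higher, 13 lower and 13 not called, where 18.3% of all genes were higher and 20.8% lower. The median log2 change of the receptors was -0.30. This direction is relative to the bulk of the genes. Unscaled, 1 was higher and 16 lower, where 13% and 26% of all genes were. Rescaled to the same sum, 1 was higher and 19 lower, where 8.38% and 35.7% of all genes were. Scaled to the neuronal markers described below, 7 were higher, none lower and 22 not called, where 56.3% of all genes were higher and 4.89% lower. The count of lower receptors ran from 6 to 13 with 1 library left out, with 6 both without 50-day replicate 1 and without 3-day replicate 1. At levels of a few FPKM, as in most receptors named here, the added 1 FPKM shrinks the change.

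Of the 16 precursors that rose, 14 have a receptor on the list, with 20 receptors in all. Of the 18 of these that were tested, 9 were lower, 1 was higher and 8 were not called, where 20.8% of all genes were lower and 18.3% higher. None of the 9 was called lower when scaled to neuronal markers. FMRFaR, the receptor of FMRFamide, had 2.44, 2.55 and 2.11 FPKM in 50-day heads, against 3.28, 3.92 and 4.15 FPKM in 3-day heads (log2 change -0.50, SE 0.12, adjusted p 0.00996). CCKLR-17D3, a receptor of the Dsk peptides, had 1.90, 1.98 and 1.56 FPKM in 50-day heads, against 3.46, 3.22 and 3.05 FPKM in 3-day heads (log2 change -0.60, SE 0.11, adjusted p 0.00442). In both receptors all old libraries lay below all young ones, while their precursors lay above. AstA-R1 (-0.60, adjusted p 0.00607), MsR2 (-0.58, 0.00946), AstC-R2 (-0.49, 0.00841) and AstC-R1 (-0.39, 0.0223) fell as well. The calls of NPFR (-0.41, 0.0202), Dh44-R1 (-0.37, 0.0185) and TrissinR (-0.42, 0.0259), all lower, were less firm when 1 library was left out. Together with that of AstC-R1, they were lost without 50-day replicate 1 (adjusted p 0.0535 for NPFR, 0.0599 for Dh44-R1, 0.0846 for TrissinR and 0.0739 for AstC-R1). They were also lost without 3-day replicate 1 (0.0634, 0.0657, 0.0846 and 0.0827 in the same order). Without 3-day replicate 2 those of Dh44-R1 (0.0603), TrissinR (0.0790) and AstC-R1 (0.0674) were lost. Without 50-day replicate 3 those of NPFR (0.0685) and TrissinR (0.0795) were lost, as was that of AstC-R1 without 50-day replicate 2 (0.0522).

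Receptors tested for CCHa2, Mip and Capa were not called. CCHa2-R had a log2 change of -0.11 (adjusted p 0.559), SPR, the receptor of the Mip peptides, -0.20 (0.0723), and PK1-R, the receptor of the pyrokinin of Capa, 0.18 (0.260). CapaR and AstA-R2 were below the filter. CCKLR-17D1 (-0.40, 0.0514), MsR1 (-0.18, 0.141), CrzR (-0.12, 0.357), Lkr (0.12, 0.589) and sNPF-R (0.0061, 0.960) were not called either. With unscaled values, CCKLR-17D1, MsR1 and SPR were called lower (adjusted p 0.0347, 0.0440 and 0.0347), as they were when rescaled to the same sum (0.0152, 0.0238 and 0.0114). CCKLR-17D1 was also called lower with no variance trend (0.0377) and without 50-day replicate 2 (0.0198), and PK1-R and sNPF-R were called higher when scaled to neuronal markers (0.00732 and 0.0162).

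The 3 receptors that were higher were AkhR, Dh44-R2 and SIFaR. AkhR, through which adipokinetic hormone mobilises fat body stores, had 39.4, 30.2 and 24.0 FPKM in 50-day heads, against 12.6, 13.7 and 13.7 FPKM in 3-day heads. Every old library exceeded every young one (log2 change 1.14, SE 0.16, adjusted p 0.00120). In old heads AkhR was highest in replicate 1 and lowest in replicate 3. This is also the order of the fat body marker sums given above, which are mostly yolk protein transcripts. The other fat body markers did not all have that order, and the part of fat body RNA was not tested. Dh44-R2 changed with its precursor (log2 change 0.34, SE 0.092, adjusted p 0.0198), but the call was lost without 50-day replicate 2 (adjusted p 0.0730) or 3 (0.0705) and with unscaled values (0.121). It was also lost when rescaled to the same sum (log2 change 0.092, adjusted p 0.656) and with the replicate number as a block (0.0517). SIFaR was higher while its precursor was lower, with 3.39, 3.60 and 3.66 FPKM in 50-day heads, against 2.98, 2.55 and 2.48 FPKM in 3-day heads (log2 change 0.31, SE 0.10, adjusted p 0.0417). That call was lost without any of the old libraries (adjusted p 0.0760, 0.111 and 0.122), without 3-day replicate 2 (0.106) or 3 (0.0720), and with unscaled values (0.163). The call of SIFaR was also lost when rescaled to the same sum (log2 change 0.096, adjusted p 0.653) and with the replicate number as a block (0.103).

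**Figure D4:**
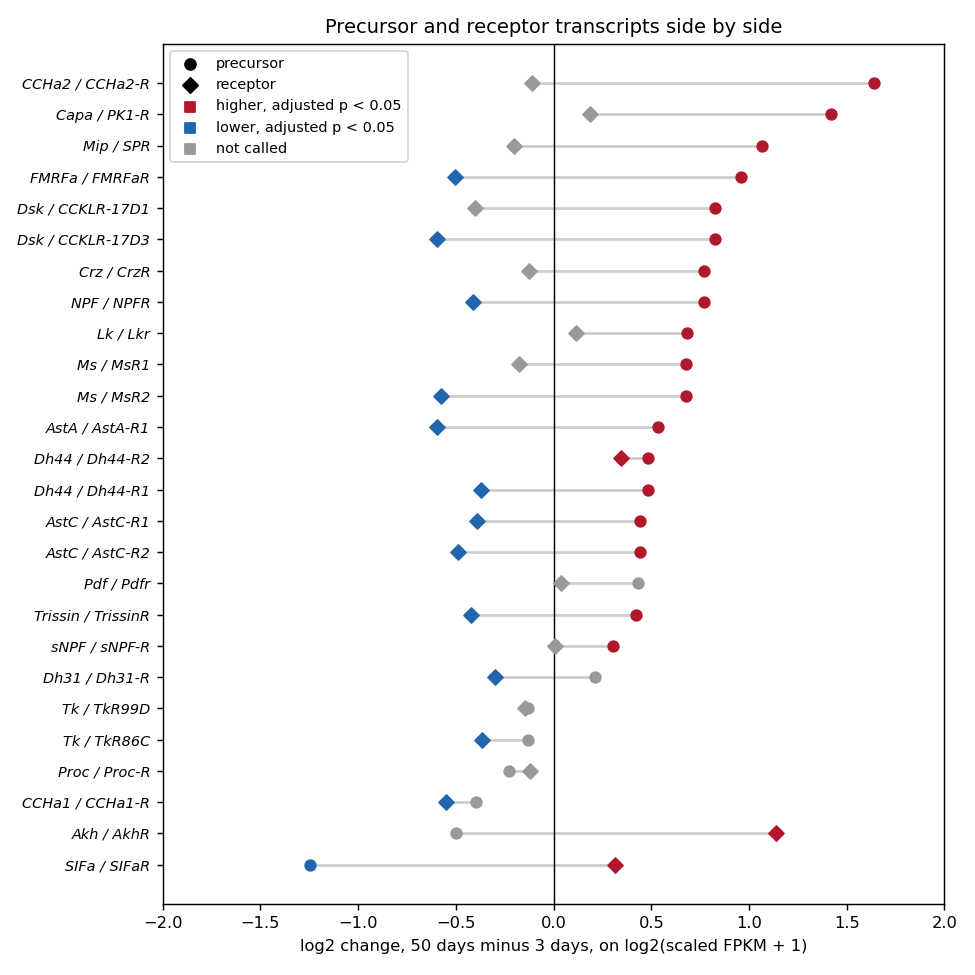
Log2 change (50 days minus 3 days) of each precursor (circle) and of a receptor of its peptides (diamond), for the 26 pairs in which both were tested, coloured by call. Circles of the risers lie right of 0, while their receptors lie near or left of it, except Dh44-R2.

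Calls among genes that process precursors shifted with the scaling, as did those of all genes. Of all genes tested, 18.3% were higher and 20.8% lower. These shares were 56.3% and 4.89% scaled to neuronal markers, and 8.38% and 35.7% rescaled to the same sum. Of 8 genes that process precursors, which encode convertases, their helper 7B2, a carboxypeptidase and amidating enzymes, 1 was higher and none lower. Of these 8, 7 were higher when scaled to neuronal markers, and 3 were lower with none higher when rescaled to the same sum. The 1 called higher was Pal1, an enzyme of the last amidation step, with 39.1, 32.6 and 27.4 FPKM in 50-day heads, against 23.4, 22.8 and 22.0 FPKM in 3-day heads (log2 change 0.51, SE 0.12, adjusted p 0.0129). The groups did not overlap, and old replicate 1 was highest. Of 9 tested genes of dense core vesicles and regulated release, 1 rose and 3 fell, against 4 higher and none lower when scaled to neuronal markers and none higher and 6 lower when rescaled to the same sum. IA-2, a dense core vesicle membrane protein, had 215, 238 and 242 FPKM in 50-day heads, against 181, 170.3 and 157 FPKM in 3-day heads (log2 change 0.45, SE 0.10, adjusted p 0.00947). It was higher in every old library than in any young one. The calls of Pal1 and IA-2 were lost when libraries were rescaled to the same sum (adjusted p 0.180 and 0.379). Cadps, which primes dense core vesicles for release, fell, with 57.9, 52.5 and 55.1 FPKM in 50-day heads, against 100.3, 77.2 and 72.0 FPKM in 3-day heads (log2 change -0.57, SE 0.13, adjusted p 0.00915). Rab3 (log2 change -0.72, SE 0.10, adjusted p 0.00143) and Rop (log2 change -0.68, SE 0.11, adjusted p 0.00216), which serve synaptic vesicles as well, were also lower, and the falls of Cadps, Rab3 and Rop were not called when scaled to neuronal markers (adjusted p 0.308, 0.0637 and 0.0921). Of 8 tested peptidase genes, 1 was called, CG3775 (Nep6 in RefSeq, a neprilysin-like gene), with 111, 62.0 and 74.7 FPKM in 50-day heads, against 28.9, 31.5 and 30.5 FPKM in 3-day heads (log2 change 1.37, SE 0.19, adjusted p 0.00110). Scaled to neuronal markers, 5 peptidase genes were higher and none lower, and rescaled to the same sum 1 was higher and 2 lower.

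General neuronal transcripts were mostly lower in old heads. Of 15 neuronal markers, 10 were lower and none higher (7 lower without 50-day replicate 1), where 20.8% of all genes were lower and 18.3% higher. Unscaled, 12 were lower, where 26% of all genes were. Rescaled to the same sum, 14 were lower, where 35.7% of all genes were. The median log2 change of the markers was -0.40, with sums of 971, 977 and 1033 FPKM in 50-day heads, against 1513, 1325 and 1316 FPKM in 3-day heads. Csp (log2 change -0.79, SE 0.087, adjusted p 0.000456), cpx (log2 change -0.72, SE 0.11, adjusted p 0.00194) and Syt1 (log2 change -0.69, SE 0.11, adjusted p 0.00188), all proteins of synaptic vesicle release, had the deepest falls. When libraries were scaled to hold these 15 markers at a constant mean level, which moves the median change of all genes to 0.39, 21 of 30 precursors were higher and 3 lower, where 56.3% and 4.89% of all genes were. SIFa (-0.83, adjusted p 0.00226), Nplp4 (-0.73, adjusted p 0.00187) and Nplp3 (-4.96, adjusted p 2.78e-05) fell on this scale too.

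**Figure D5:**
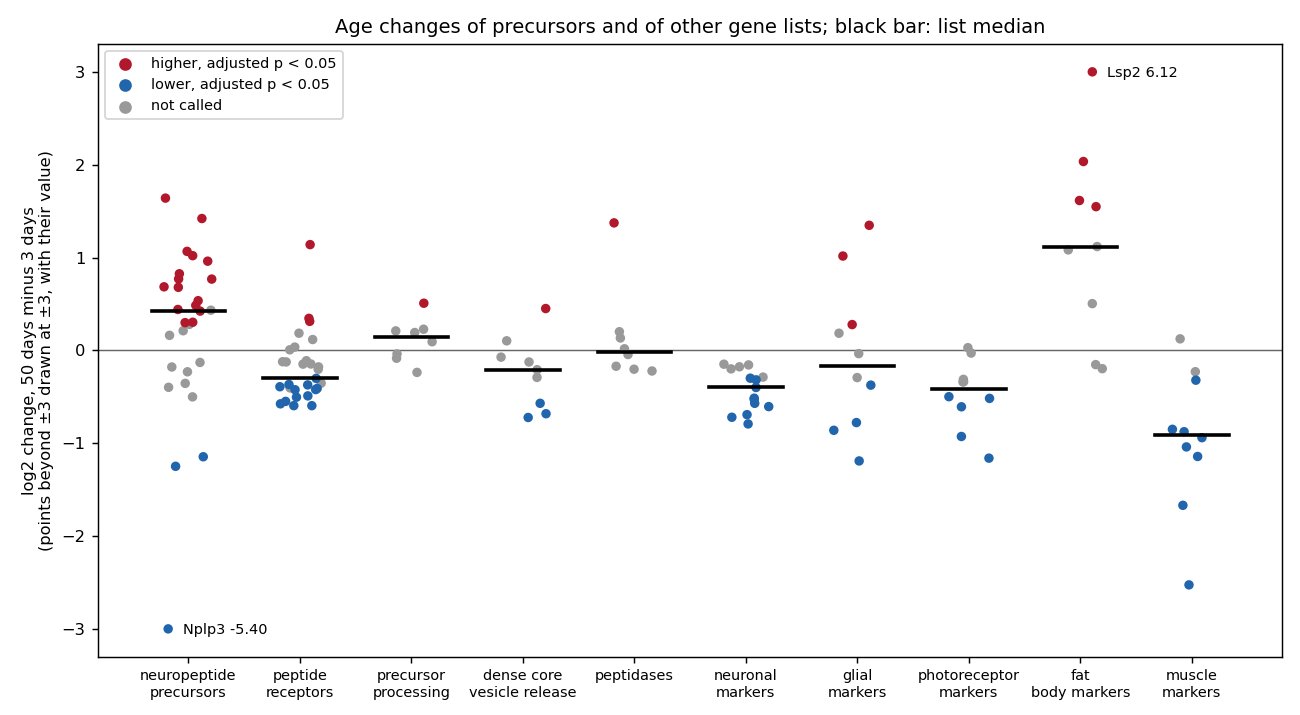
Log2 change (50 days minus 3 days) of each tested gene of 10 lists, coloured by call, with the list median as a black bar. The precursor median lies at 0.42, against -0.30 for receptors and -0.40 for neuronal markers, and Nplp3 and Lsp2 lie beyond the axis and are drawn at its edge with their values.

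Some markers of other cell types of the head were also called, where 18.3% of all genes were higher and 20.8% lower. Among fat body markers 4 of 9 were higher and none lower, led by Lsp2 (log2 change 6.12, SE 0.24, adjusted p 1.37e-05), apolpp (log2 change 2.03, SE 0.21, adjusted p 0.000377) and Yp3 (log2 change 1.61, SE 0.37, adjusted p 0.0101). FASN1 (log2 change -0.20) and the gene to (-0.15) had negative changes that were not called. Rescaled to the same sum, 6 fat body markers were higher and 2 lower, where 8.38% and 35.7% of all genes were. With no filter on low values 2 were higher, and the call of Yp3 was lost (adjusted p 0.0716). Of 10 glial markers 3 were higher and 4 lower, and of 10 photoreceptor markers 5 were lower and none higher. The count of lower photoreceptor markers was 3 without 50-day replicate 1, without 50-day replicate 2 or without 3-day replicate 1. It was 8 rescaled to the same sum and 2 scaled to neuronal markers, where 35.7% and 4.89% of all genes were lower. Photoreceptor sums were 20993, 23519.9 and 24477 FPKM in 50-day heads, against 23588, 26552 and 25164 FPKM in 3-day heads, and glial sums 1327, 1248 and 1325 FPKM in 50-day heads, against 1523, 1349 and 1528 FPKM in 3-day heads.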

How the data were processed

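RNA of female heads was sequenced after selection of polyadenylated transcripts, as paired reads of 150 bases. Per the submitters' processing notes, fastp, HISAT2, HTSeq and build BDGP6 were used, and the version and role of each are not given in the sources used here. The authors deposited a table that is named as counts but holds values that are not whole, and these are read here as FPKM. TPM over a longer gene list would differ by a constant per library, which the factors remove. All 6 columns were matched to samples by library name.

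Library factors were trimmed means of log ratios against a common library (genes above 1 FPKM in both, trimming 30% of ratios and 5% of levels at each end). The filter kept genes whose mean reached 1 FPKM, and log2(FPKM + 1) was fitted with limma 3.58.1 in R 4.3.3 (eBayes with trend, age as factor), with adjusted p-values over 8742 genes. The procedure was checked on simulated data in which few genes changed, as many up as down. That check does not cover the scaling of data in which 39.1% of genes are called. Members and lists were chosen with earlier results of these data known. Per-library values are given for called precursors, the 3 most abundant and those with separate groups. From the other lists, receptors of called precursors and at most the 3 highest and 3 lowest calls are named, and glial, photoreceptor and muscle calls are given as counts alone. CNMa, CCHa1, Akh, RYa, CCAP and ETH were given further values after these were seen. Identifiers and positions come from the Ensembl BDGP6.54 annotation, in which all 34 symbols matched. For all pairs of libraries, Pearson's r of log2 values was 0.985 to 0.991 within an age and 0.895 to 0.940 between ages. The labels give no sequencing batch.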

Additional observations from a re-analysis of the deposited data

How the results depend on the processing

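Alternatives were a pseudocount of 0.1, no filter, 3 other scalings, no variance trend, a replicate block and leaving out each library. The count of precursors called higher was 16 and ran from 12 to 19 with 1 library left out, and 3 were called lower in each of these fits. Rescaling to the same sum gave 10 higher and 7 lower precursors, and 734 higher and 3125 lower genes in all, against 1604 and 1814 as reported. Scaling to the neuronal markers gave 4922 higher and 428 lower genes. With 1 library left out, all genes called higher ran from 1236 to 1757 and lower from 1339 to 1961. Receptors called higher numbered 3, against 1 unscaled, 1 rescaled to the same sum, 7 scaled to neuronal markers and 1 with the block, and 1 to 3 with 1 library left out. Receptors called lower numbered 13, against 0 scaled to neuronal markers and 8 with the block, and 6 to 13 with 1 library left out. Counts of neuronal markers called lower ran from 7 to 11 with 1 library left out. The receptor, neuronal marker and other non-precursor results were put through these alternatives after the data were seen.

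Rescaling to the same sum gave -0.071 for Dh31, -0.0021 for Hug, -0.10 for Orcokinin, -0.10 for Lkr, -0.012 for PK1-R and -0.26 for sNPF-R. Scaling to neuronal markers gave 0.30 for Tk, 0.25 for Nplp1, 0.20 for Proc, 0.062 for Eh, 0.20 for SPR, 0.26 for CrzR, 0.21 for MsR1, 0.13 for CCHa2-R and 0.00094 for Dh44-R1, which was called lower as reported. For sNPF-R the change was -0.094 unscaled and -0.0063, -0.036 and -0.014 without 50-day replicates 2 and 3 and 3-day replicate 2. With 1 library left out, sNPF-R ran from -0.036 to 0.061, and Lkr from -0.062 to 0.22. The ages share replicate numbers. Over all genes tested, same-numbered libraries did not deviate together (r -0.21, -0.10 and -0.24), so they were not taken as pairs. Among the 29 tested precursors, however, replicate 1 was the lowest of its age for 20 in old heads and 19 in young heads. Whether the precursors alone deviate together by replicate number was not tested. With the replicate number as a block, 14 precursors were called higher (not sNPF, adjusted p 0.0772, or Nplp2, 0.0999) and 3 lower, and 2703 genes in all, against 3418. Depth is not known, so the counting error of the lowest precursors, under about 1 FPKM, cannot be given here.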

Other observations

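Of the 29 tested precursors, old replicate 1 had the lowest scaled value of its age for 20, and replicates 2 and 3 for 4 and 5. Among young libraries, replicate 1 was lowest for 19 and replicate 3 highest for 21. The median coefficient of variation of a precursor was 11.5% in old heads and 14.7% in young heads (n = 3 each). The neuronal marker sums, given above, were highest in young replicate 1.

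The values of RYa and Akh, both low, rested on single libraries. RYa had 1.98, 0.214 and 0.253 FPKM in 50-day heads, against 0.441, 0 and 0.953 FPKM in 3-day heads, so that old replicate 1 alone stood above every young library. Akh was at 4.27 FPKM in 3-day replicate 3 and at or below 0.787 FPKM in every other library. ETH, also low, had 0.247, 0.211 and 0.166 FPKM in 50-day heads, against 0.801, 0.390 and 0.189 FPKM in 3-day heads, so that young replicates 1 and 2 stood above every old library. An antisense RNA shares 683 exon bases with ETH, and as for Lk, reads of the pair cannot be told apart.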
